A study of Mus musculus with 39 samples.

Results

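Brain vessels are described here through 32 genes that mark their endothelial and mural cells, out of 51826 genes counted in each library. The genes were taken by symbol from textbook markers with no threshold on a measured value, although earlier results of these data were known when the list was made, and all 32 were found. By role they comprise 5 junction and surface adhesion genes, 6 angiogenic receptors and their partners, 6 blood-brain barrier transporters, 5 other endothelial surface or secreted genes, 2 SOX transcription factors, 5 pericyte genes and 3 smooth muscle genes. PolyA RNA of C57BL/6J mice aged 8 to 12 weeks was counted in punches from 300 µm brain sections. Punches were taken from an amygdala region, the basolateral amygdala (BLA), and from the ventral striatum, as the nucleus accumbens (NAc). The groups were wild-type mice (11 BLA and 10 NAc libraries) and mice carrying 1 gene-trap allele of the transcription cofactor gene Lmo4, written Lmo4gt/+ (9 BLA and 9 NAc libraries). The labels name no treatment. There were 39 libraries of 20 mice, 19 of them sampled in each region. The study compared the genotypes in each region to look for genes regulated by LMO4.

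Brain capillaries are lined by endothelial cells that are sealed by tight junctions and carry selective transporters, which together form the blood-brain barrier. Pericytes wrap the capillaries and are held there by PDGF-B acting on their receptor PDGFRB, while contractile smooth muscle cells surround arterioles. Vascular endothelial growth factor (VEGF) and the angiopoietins act on receptors of the endothelium. In a bulk punch, fewer vessel cells and less RNA per vessel cell cannot be told apart.

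Gene counts per library ran from 21255934 to 51021670. Lmo4 itself ranged over 143 to 178 CPM (median 168) in wild-type and 68.5 to 109 CPM (median 94.1) in Lmo4gt/+ BLA, and over 67.8 to 106 CPM (median 86.6) and 45.9 to 69.7 CPM (median 51.6) in the NAc (CPM, counts scaled to library size). NAc library 122, which had the highest Lmo4 of the Lmo4gt/+ NAc group, carries conflicting labels: its title and description name the mutant and its genotype field wild type. It was placed by its title, and counts are also given without it. The no-feature share, the percentage of reads that HTSeq set to no feature of the annotation, was higher in the NAc in 19 of 19 mice. This share is only a part of the reads given to no gene, and it can include reads in introns. It ran from 12.5% to 17.7% in wild-type and 12.7% to 16.98% in Lmo4gt/+ BLA, and from 16.04% to 21.2% and 16.8% to 27.6% in the NAc, where library 149 stood highest at 27.6% and the next reached 22.1%. Summed CPM of 5 glutamatergic neuron genes had a median of 17.6 in wild-type NAc but reached 1195 in NAc library 134. In Lmo4gt/+ NAc the median was 8.67 and library 122 reached 724.

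All 32 vessel genes were detected in all 39 libraries, and all 32 passed the filter on low counts in every comparison. The lowest count was 8, for Ctla2a in BLA library 149. Ordered by mean CPM per kilobase of annotated exon in wild-type BLA, the glucose transporter gene Slc2a1 came first at 25.5, followed by the pericyte genes Rgs5 at 22.6 and Vtn at 16.9. Next came Itm2a, an endothelial membrane protein gene, at 15.01 and the organic anion transporters Slco1a4 and Slco1c1 at 13.9 and 13.7 CPM per kilobase. The tight junction gene Cldn5 stood at 10.3. The smooth muscle genes Acta2, Myh11 and Tagln stood at 2.45, 2.08 and 1.82. The sialomucin gene Emcn was lowest at 0.497, below Ctla2a at 0.728. In wild-type NAc, Slc2a1 was again first at 30.8 and Emcn last at 0.587 CPM per kilobase.

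**Figure D1:**
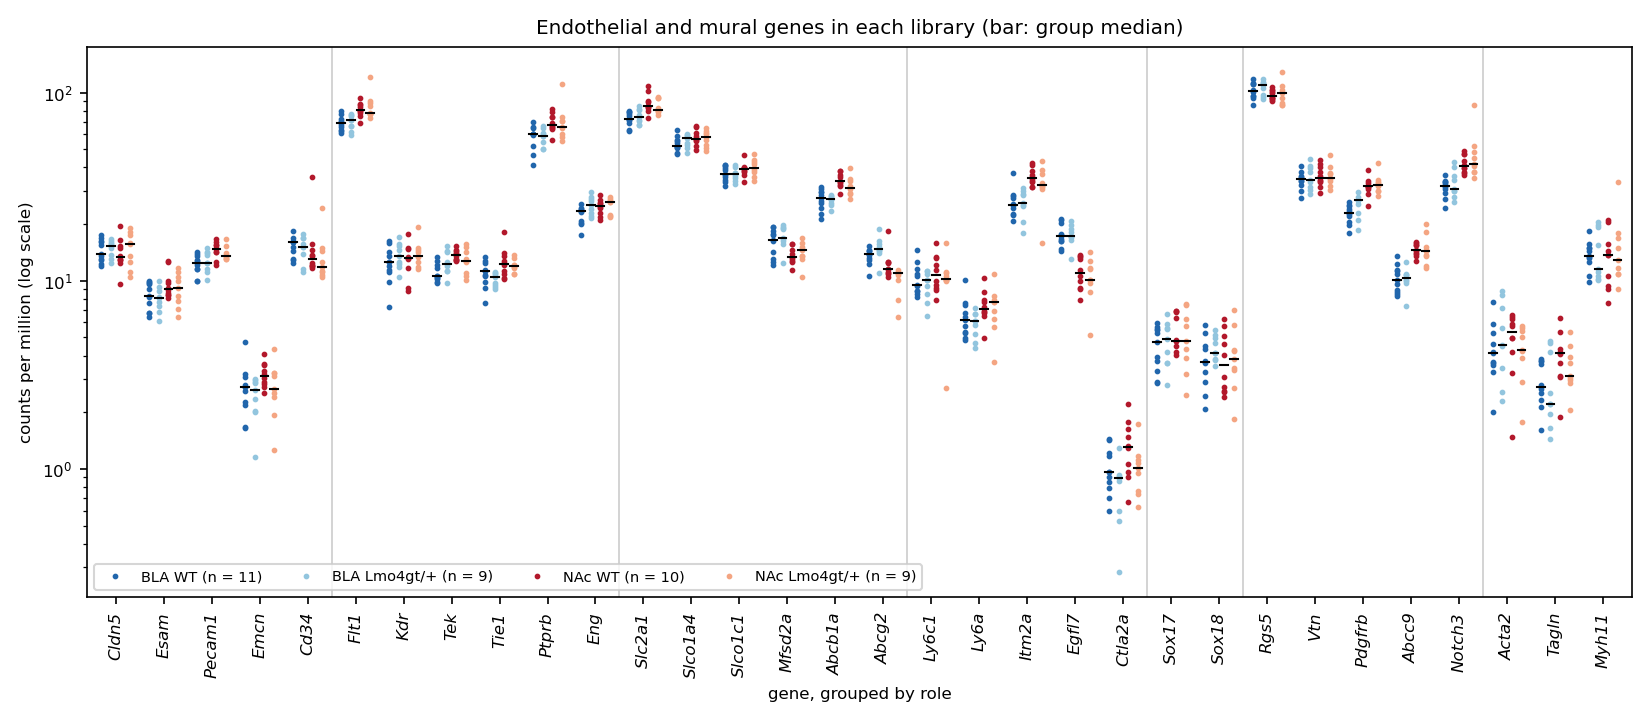
CPM (log axis) of the 32 genes in each library, grouped by role, with 1 point a library and a bar at the group median. For most genes the 4 groups overlap, Egfl7 is lower in the NAc, and NAc library 134 gives the single high Cd34 point at 35.8 CPM.

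Levels summed over a cell class overlapped between regions. The 24 endothelial genes summed to 491 to 589 CPM (median 518) in wild-type BLA and 552 to 633 CPM (median 603) in wild-type NAc. In Lmo4gt/+ mice the sums were 522 to 558 CPM (median 535) and 538 to 624 CPM (median 580.3). The 5 pericyte genes summed to 177 to 221 CPM (median 202) in wild-type BLA and 207 to 241 CPM (median 221) in wild-type NAc. In Lmo4gt/+ mice they summed to 194.5 to 229.7 CPM (median 203) and 202.9 to 323 CPM (median 219.7). The 3 smooth muscle genes varied most in proportion, with 15.3 to 28.9 CPM (median 20.4) and 12.4 to 31.7 CPM (median 24.04) in wild-type mice. Their Lmo4gt/+ sums were 14.5 to 33.3 CPM (median 18.2) and 13.9 to 41.8 CPM (median 20.2). NAc library 149 held the highest Lmo4gt/+ NAc sum of pericyte and of smooth muscle genes.

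NAc and BLA were compared within mice, in 10 wild-type and 9 Lmo4gt/+ mice. In wild-type mice 14 of the 32 vessel genes were higher in the NAc and 2 lower (edgeR quasi-likelihood test, adjusted p under 0.05). Over all 16887 genes tested 59.6% passed, 31.1% higher and 28.5% lower. In Lmo4gt/+ mice 8 vessel genes were higher and 3 lower, against 52.7% of 17026 genes, 26.2% higher and 26.4% lower. Their median log2 fold change (NAc minus BLA) was 0.18 in wild-type and 0.09 in Lmo4gt/+ mice, beside 0.04 and 0.01 for all genes. Of the 32, 9 passed in both genotypes, which share no mice. The share of all genes that passed in both was not counted, so the 9 say nothing particular about vessel genes. The sign was the same in both genotypes for 28 of the 32, beside 89.2% of all genes. Without mouse 122 the Lmo4gt/+ comparison called 8 higher and 3 lower, the same 11 genes. Wild-type mouse 151 gave no NAc library and is not in the within-mouse fit.

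**Figure D2:**
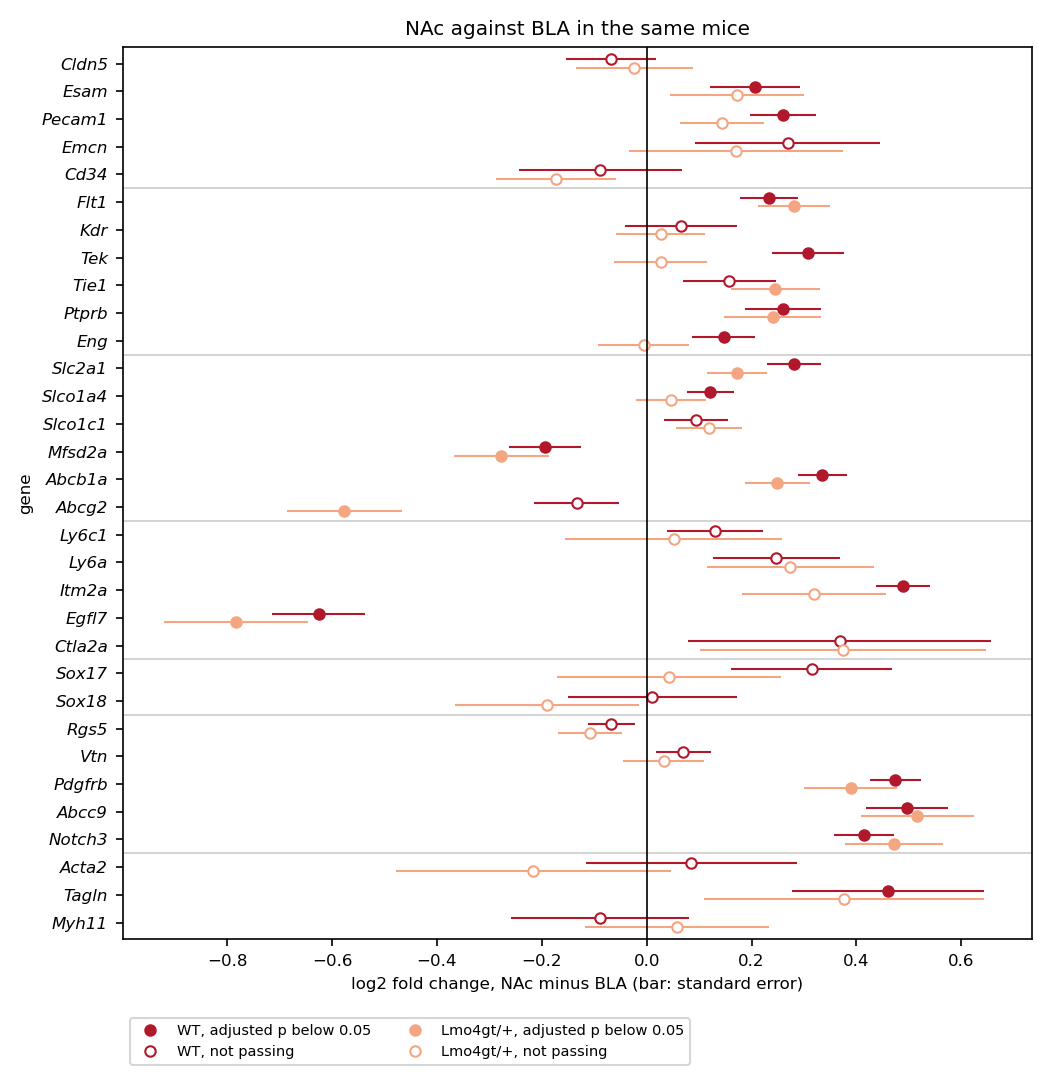
Log2 fold change of NAc minus BLA within mice for each of the 32 genes, with bars of 1 standard error, in 10 wild-type and 9 Lmo4gt/+ mice. Filled points had an adjusted p below 0.05. The pericyte genes Pdgfrb, Abcc9 and Notch3 lie to the right of 0 in both genotypes, and Egfl7 is farthest to the left.

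These calls did not hold with the no-feature share in the fit. In wild-type mice 0 of 32 genes then passed (2 at an unadjusted p under 0.05), and 2.02% of all genes. Standard errors in that fit were wider, for example 0.08 and 0.43 for Abcc9, and region and share can be separated only in part. Pdgfrb (0.70 ± 0.27), Itm2a (0.67 ± 0.29) and Abcb1a (0.33 ± 0.27) kept a positive estimate, Abcc9 was near 0 (0.01 ± 0.43), and Notch3 (-0.26 ± 0.27), Flt1 (-0.41 ± 0.27) and Ptprb (-0.62 ± 0.34) changed sign. In Lmo4gt/+ mice 5 genes passed with the share in the fit, all higher in the NAc, and 36.7% of all genes did. They were Ly6a (0.95 ± 0.18), Tagln (1.23 ± 0.37), Itm2a (0.73 ± 0.20), Cldn5 (0.41 ± 0.13) and Slc2a1 (0.25 ± 0.09), of which Slc2a1 alone had also passed without it. The values below are those of the fit without the share.

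Among pericyte genes 3 of 5 were higher in the NAc in both genotypes, beside 31.1% of all genes in wild-type and 26.2% in Lmo4gt/+ mice. Abcc9, a subunit of the potassium channel of mural cells (chromosome 6, positions 142536382 to 142650794, minus strand, NCBIM37), ranged over 8.32 to 13.6 CPM (median 10.1) in wild-type BLA and 12.8 to 16.1 CPM (median 14.5) in wild-type NAc. The ranges overlapped at their ends, and the NAc was higher in 10 of 10 wild-type and 9 of 9 Lmo4gt/+ mice. Abcc9 rose by 0.50 ± 0.08 (log2, SE, adjusted p = 4.14e-05) in wild-type and 0.52 ± 0.11 (adjusted p = 0.000911) in Lmo4gt/+ mice.

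Notch3, the Notch receptor of mural cells (chromosome 17, positions 32257765 to 32303825, minus strand), ranged over 24.4 to 36.3 CPM (median 31.8) in wild-type BLA and 36.5 to 48.9 CPM (median 40.6) in wild-type NAc, with no overlap. It rose by 0.41 ± 0.06 (adjusted p = 8.17e-06, 10 of 10 mice) and by 0.47 ± 0.09 (adjusted p = 0.000574, 9 of 9 mice). In Lmo4gt/+ NAc the median of Notch3 was 41.8 CPM, and library 149 stood far above the others at 85.8 CPM, with the next at 51.8. The NAc to BLA ratio of Notch3 in Lmo4gt/+ mice had a median of 1.31 and reached 2.12. Pdgfrb, the receptor for PDGF-B (chromosome 18, positions 61204804 to 61244715, plus strand), ranged over 17.9 to 26.3 CPM (median 22.9) and 24.9 to 38.7 CPM (median 31.7), with a small overlap. It rose by 0.47 ± 0.05 (adjusted p = 3.47e-07, 10 of 10 mice) and by 0.39 ± 0.09 (adjusted p = 0.00166, 8 of 9 mice). Rgs5, a regulator of G protein signalling, did not pass, with -0.07 ± 0.05 (95% interval -0.16 to 0.03) and -0.11 ± 0.06, but passed as lower in Lmo4gt/+ mice without mouse 149 (-0.14 ± 0.05, adjusted p = 0.0394). Vtn, the gene of the matrix protein vitronectin, had 0.07 ± 0.05 (95% interval -0.04 to 0.18) and 0.03 ± 0.08. The wild-type intervals of Rgs5 and Vtn thus ended below the estimates of Abcc9, Notch3 and Pdgfrb.

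Among smooth muscle genes Tagln, which codes for the actin-binding protein transgelin, passed in wild-type mice. It ranged over 1.61 to 3.83 CPM (median 2.71) in wild-type BLA and 1.88 to 6.35 CPM (median 4.11) in wild-type NAc. The ranges overlapped widely, and it rose by 0.46 ± 0.18 (adjusted p = 0.0394, 8 of 10 mice). The call was lost with no filter (adjusted p = 0.0611) and without mice 129, 134 and 156 (adjusted p = 0.0955). In Lmo4gt/+ mice Tagln had 0.38 ± 0.27. Acta2 (smooth muscle actin) had 0.08 ± 0.20 and -0.22 ± 0.26, and Myh11 (smooth muscle myosin) -0.09 ± 0.17 and 0.06 ± 0.18. Pcsk7 overlaps Tagln on the opposite strand, and no strand setting for counting is given in the sources used here, so reads of both may be mixed.

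Of the 6 angiogenic receptor genes 4 were higher in the NAc in wild-type and 3 in Lmo4gt/+ mice, beside the same 31.1% and 26.2% of all genes. Flt1, the high-affinity VEGF receptor, ranged over 60.7 to 79.8 CPM (median 68.7) in wild-type BLA and 69.01 to 93.7 CPM (median 80.8) in wild-type NAc. The ranges overlapped, and it rose in 9 of 10 wild-type mice (0.23 ± 0.06, adjusted p = 0.00154) and in 9 of 9 Lmo4gt/+ mice (0.28 ± 0.07, adjusted p = 0.00299). Ptprb, the phosphatase that acts on the angiopoietin receptor, ranged over 41.5 to 69.6 CPM (median 60.1) and 56.3 to 82.3 CPM (median 67.5). It rose by 0.26 ± 0.07 (adjusted p = 0.00591) and by 0.24 ± 0.09 (adjusted p = 0.0409). The second of these calls was lost without mouse 149 (adjusted p = 0.0597), whose NAc library held 112 CPM of Ptprb, the highest value of all.

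Tek, the angiopoietin receptor, ranged over 9.78 to 13.4 CPM (median 10.6) in wild-type BLA and 12.7 to 15.3 CPM (median 13.6) in wild-type NAc, and overlapped little. It rose by 0.31 ± 0.07 in wild-type mice (adjusted p = 0.000928, 10 of 10 mice) and had 0.03 ± 0.09 in Lmo4gt/+ mice, a difference between genotypes that did not pass. Tie1, the partner of Tek, passed in Lmo4gt/+ mice (0.24 ± 0.08, adjusted p = 0.0245) and had 0.16 ± 0.09 in wild-type mice. With no filter that call was lost (adjusted p = 0.0943). Eng, a TGF-beta coreceptor, passed in wild-type mice (0.15 ± 0.06, adjusted p = 0.0441). Fpgs overlaps Eng on the opposite strand and Ak1 on the same strand, so counts given for Eng may hold reads of either. Kdr, the main signalling VEGF receptor, passed in neither, with 0.07 ± 0.11 (95% interval -0.16 to 0.29) and 0.03 ± 0.09 (95% interval -0.16 to 0.21).

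Barrier transporters went both ways. Abcb1a, the drug efflux pump P-glycoprotein, ranged over 21.4 to 31.6 CPM (median 27.4) in wild-type BLA and 28.8 to 38.3 CPM (median 33.7) in wild-type NAc. It was higher in the NAc in 10 of 10 wild-type mice (0.33 ± 0.05, adjusted p = 1.12e-05) and 9 of 9 Lmo4gt/+ mice (0.25 ± 0.06, adjusted p = 0.00324), although the ranges overlapped. Slc2a1 ranged over 62.2 to 79.7 CPM (median 72.7) and 73.2 to 108 CPM (median 85.2), and rose by 0.28 ± 0.05 (adjusted p = 0.000170) and by 0.17 ± 0.06 (adjusted p = 0.0206). The Lmo4gt/+ call of Slc2a1 was lost with no filter (adjusted p = 0.0675) and without mice 122, 127, 149 and 159 (adjusted p = 0.0908). Gm12868 and Gm12867 overlap Slc2a1 on the opposite strand and Mir1957 on the same strand, so its counts may hold their reads. Slco1a4 passed in wild-type mice (0.12 ± 0.05, adjusted p = 0.0297), and Slco1c1 had 0.09 ± 0.06 and 0.12 ± 0.06.

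Mfsd2a, a lipid transporter that keeps vesicular transport across the barrier low, was lower in the NAc. It ranged over 12.2 to 19.4 CPM (median 16.5) in wild-type BLA and 11.4 to 15.7 CPM (median 13.4) in wild-type NAc, with overlap, and was lower in 10 of 10 mice (-0.19 ± 0.07, adjusted p = 0.0217). In Lmo4gt/+ mice it had -0.28 ± 0.09 (adjusted p = 0.0180), and the wild-type call was lost without mice 129, 134 and 156 (adjusted p = 0.0578). Abcg2, another efflux pump, ranged over 10.97 to 18.9 CPM (median 14.7) in Lmo4gt/+ BLA and 6.38 to 11.4 CPM (median 10.9) in Lmo4gt/+ NAc. The ranges overlapped slightly, and it was lower in 9 of 9 Lmo4gt/+ mice (-0.58 ± 0.11, adjusted p = 0.000406), with -0.13 ± 0.08 in wild-type mice.

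The other endothelial genes held the largest fall and one of the largest rises. Egfl7, a secreted factor of endothelial cells (chromosome 2, positions 26435534 to 26448640, plus strand, NCBIM37), ranged over 14.4 to 21.3 CPM (median 17.2) in wild-type BLA and 7.91 to 13.7 CPM (median 11.04) in wild-type NAc, with no overlap. Its fold change was -0.63 ± 0.09 (adjusted p = 1.27e-05, lower in 10 of 10 mice) and -0.78 ± 0.14 (adjusted p = 0.000206, lower in 8 of 9 mice). In Lmo4gt/+ mice the Egfl7 ranges overlapped, at 13.04 to 20.7 CPM in the BLA and 5.17 to 14.2 CPM in the NAc. The lowest value was that of NAc library 149. Mir126 lies within Egfl7, and the protein-coding gene Gm20532 overlaps it on the same strand and Agpat2 on the opposite strand. Counts given for Egfl7 may therefore hold reads of any of them. Itm2a ranged over 20.8 to 37.2 CPM (median 25.2) and 31.5 to 42.3 CPM (median 35.3), with overlap, and rose by 0.49 ± 0.05 in wild-type mice (adjusted p = 4.64e-07, 10 of 10 mice). In Lmo4gt/+ mice it missed the threshold (0.32 ± 0.14, adjusted p = 0.0660) and passed without mouse 149 (0.46 ± 0.09, adjusted p = 0.000391).

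Of the junction genes, Pecam1, an adhesion molecule of endothelial contacts, ranged over 9.93 to 14.2 CPM (median 12.5) in wild-type BLA and 12.1 to 16.6 CPM (median 14.8) in wild-type NAc. It rose in 10 of 10 wild-type mice (0.26 ± 0.06, adjusted p = 0.00194), although the ranges overlapped. Esam, another junction protein, passed in wild-type mice (0.21 ± 0.09, adjusted p = 0.0473). The wild-type calls of Esam, Eng and Slco1a4 were each lost with RLE size factors, with no filter, with DESeq2, with no replicate block and without mice 129, 134 and 156, with adjusted p of 0.0530 to 0.222. Cldn5 had -0.07 ± 0.09 (95% interval -0.25 to 0.11) in wild-type and -0.02 ± 0.11 in Lmo4gt/+ mice. Cd34, a sialomucin of capillary endothelium, was lower in the NAc in 9 of 10 wild-type mice, but NAc library 134 held 35.8 CPM against a median of 12.97, and the estimate was -0.09 ± 0.15. Without mice 129, 134 and 156 Cd34 passed (-0.28 ± 0.08, adjusted p = 0.00754), as it did in Lmo4gt/+ mice without mice 122, 127, 149 and 159 (-0.40 ± 0.11, adjusted p = 0.00487). Emcn, Ctla2a, the GPI-anchored surface protein genes Ly6c1 and Ly6a, and the transcription factor genes Sox17 and Sox18 passed in neither genotype, with estimates of -0.19 to 0.37. Without mouse 149, Ly6a (0.41 ± 0.13, adjusted p = 0.0171) and Ly6c1 (0.26 ± 0.11, adjusted p = 0.0491) passed in Lmo4gt/+ mice. Ly6c1, Ly6a, Ctla2a, Abcb1a, Slco1a4 and Acta2 have close paralogs, so their counts are uncertain where reads were shared.

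The start-site windows of 4 genes that passed in both genotypes, chosen after their values were seen, show the sequence at the starts of the gene with the largest fall, of 2 pericyte genes and of a VEGF receptor. They are RefSeq windows on GRCm38.p6, each of 250 bases before and 50 bases after an annotated start, read along the gene. Capitals mark the words GGAAGT (a core of ETS factor sites), ACAAAG and ACAATG (SOX-type words) on either strand, and the CArG box of serum response factor was searched as well. The 3 starts of Egfl7 are at chr2:26580833-26581132, chr2:26583615-26583914 and chr2:26586386-26586685, plus strand. Abcc9 is at chr6:142702225-142702524, Notch3 at chr17:32166841-32167140 and Flt1 at chr5:147725962-147726261, minus strand.
Egfl7 start 1: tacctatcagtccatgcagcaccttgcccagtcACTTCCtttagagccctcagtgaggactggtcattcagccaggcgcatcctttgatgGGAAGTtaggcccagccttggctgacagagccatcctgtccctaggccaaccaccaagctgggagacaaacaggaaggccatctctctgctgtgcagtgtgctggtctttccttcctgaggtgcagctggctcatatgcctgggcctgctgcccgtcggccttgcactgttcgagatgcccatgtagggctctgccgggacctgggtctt
Egfl7 start 2: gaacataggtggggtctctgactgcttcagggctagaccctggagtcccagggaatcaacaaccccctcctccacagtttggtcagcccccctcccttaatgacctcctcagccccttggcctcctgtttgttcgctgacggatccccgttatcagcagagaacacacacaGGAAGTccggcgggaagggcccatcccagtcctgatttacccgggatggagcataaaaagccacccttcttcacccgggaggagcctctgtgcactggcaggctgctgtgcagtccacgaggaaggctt
Egfl7 start 3: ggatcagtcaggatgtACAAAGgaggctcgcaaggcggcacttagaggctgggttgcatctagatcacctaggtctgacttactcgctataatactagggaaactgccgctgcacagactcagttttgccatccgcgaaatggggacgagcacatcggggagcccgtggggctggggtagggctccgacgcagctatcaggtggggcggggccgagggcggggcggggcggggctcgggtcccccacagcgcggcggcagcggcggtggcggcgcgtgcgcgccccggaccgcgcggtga
Abcc9: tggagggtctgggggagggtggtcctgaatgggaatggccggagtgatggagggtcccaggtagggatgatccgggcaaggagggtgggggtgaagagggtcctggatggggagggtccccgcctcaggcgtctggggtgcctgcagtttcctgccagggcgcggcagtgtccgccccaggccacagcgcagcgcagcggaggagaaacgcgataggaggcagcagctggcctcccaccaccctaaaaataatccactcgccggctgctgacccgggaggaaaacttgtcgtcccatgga
Notch3: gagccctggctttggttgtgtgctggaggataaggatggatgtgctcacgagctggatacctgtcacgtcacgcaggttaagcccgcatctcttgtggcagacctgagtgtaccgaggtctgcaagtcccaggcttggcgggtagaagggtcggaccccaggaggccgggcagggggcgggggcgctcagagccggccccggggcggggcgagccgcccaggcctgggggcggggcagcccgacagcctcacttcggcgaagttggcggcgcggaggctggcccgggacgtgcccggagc
Flt1: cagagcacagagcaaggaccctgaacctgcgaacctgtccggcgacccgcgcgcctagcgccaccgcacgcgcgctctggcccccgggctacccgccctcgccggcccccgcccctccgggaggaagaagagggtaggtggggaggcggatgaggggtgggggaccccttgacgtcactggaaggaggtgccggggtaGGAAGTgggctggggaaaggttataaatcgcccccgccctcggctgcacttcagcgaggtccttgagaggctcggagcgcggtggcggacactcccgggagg

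GGAAGT began at -217 and -160 from start 1 of Egfl7, at -79 from start 2 and at -52 from the start of Flt1. ACAAAG began at -234 from start 3 of Egfl7, and none of the words was in the Abcc9 and Notch3 windows. Some of the 23 vessel genes with a window had several, 29 windows in all. GGAAGT was present for 8 of these genes, in 10 of the 29 windows, and in 23.8% of all 32851 windows. ACAAAG was present for 6 genes, in 6 of the 29 windows, and in 18.7% of all windows. ACAATG was present for 2 genes, in 2 of the 29 windows, and in 12.6% of all windows. The CArG box was searched only as the exact pattern of CC, 6 bases of A or T, and GG. That pattern was in none of the vessel gene windows searched and in 1.63% of all windows. Words 1 base off it were not counted, such as ccctatatgg and ccttgtttgg in the Acta2 window. The result therefore does not show that these windows lack a CArG box. Of the 3 smooth muscle genes Acta2 alone was searched, since Tagln and Myh11 had no window.

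Within a region, too, some vessel genes moved with the no-feature share. With genotype means taken out, the log2 CPM of 4 of 32 genes was correlated with it in the BLA, against 16.5% of all genes, and that of 11 of 32 in the NAc, against 21.3% (permutation tests, 32 relations a region, adjusted over all genes). The BLA count is below the share of all genes and the NAc count above it. In the BLA, Ptprb had r = 0.89, p = 1e-05, rho = 0.74, p = 0.000340, adjusted p = 0.000645, where 1e-05 is the smallest p that 100000 resamples can give. Notch3 had r = 0.67, p = 0.000510, rho = 0.57, p = 0.00671, adjusted p = 0.00761. Abcc9 had r = 0.62, p = 0.00562, rho = 0.51, p = 0.0334, adjusted p = 0.0382, and Flt1 r = 0.59, p = 0.00792, rho = 0.47, p = 0.0415, adjusted p = 0.0485, by the same permutation test. Without the 2 libraries farthest from the median share, r was 0.77, 0.61, 0.57 and 0.58. In the NAc, Notch3 (0.82), Pdgfrb (0.82), Ptprb (0.81), Abcc9 (0.76) and Abcb1a (0.68) had a positive r, and Ly6c1 (-0.85), Ly6a (-0.78), Cldn5 (-0.74), Egfl7 (-0.71), Mfsd2a (-0.70) and Abcg2 (-0.68) a negative one. Their permutation p for r ran from 5e-05 to 0.00609 (adjusted 0.00154 to 0.0343), and absolute rho from 0.41 to 0.82 with p from 6e-05 to 0.0889. Without the 2 farthest libraries their absolute r ran from 0.14 to 0.82, so that relations at the low end, such as that of Abcg2 (r = -0.14), rest on those libraries. Without NAc libraries 122, 134 and 149 a single gene passed.

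**Figure D3:**
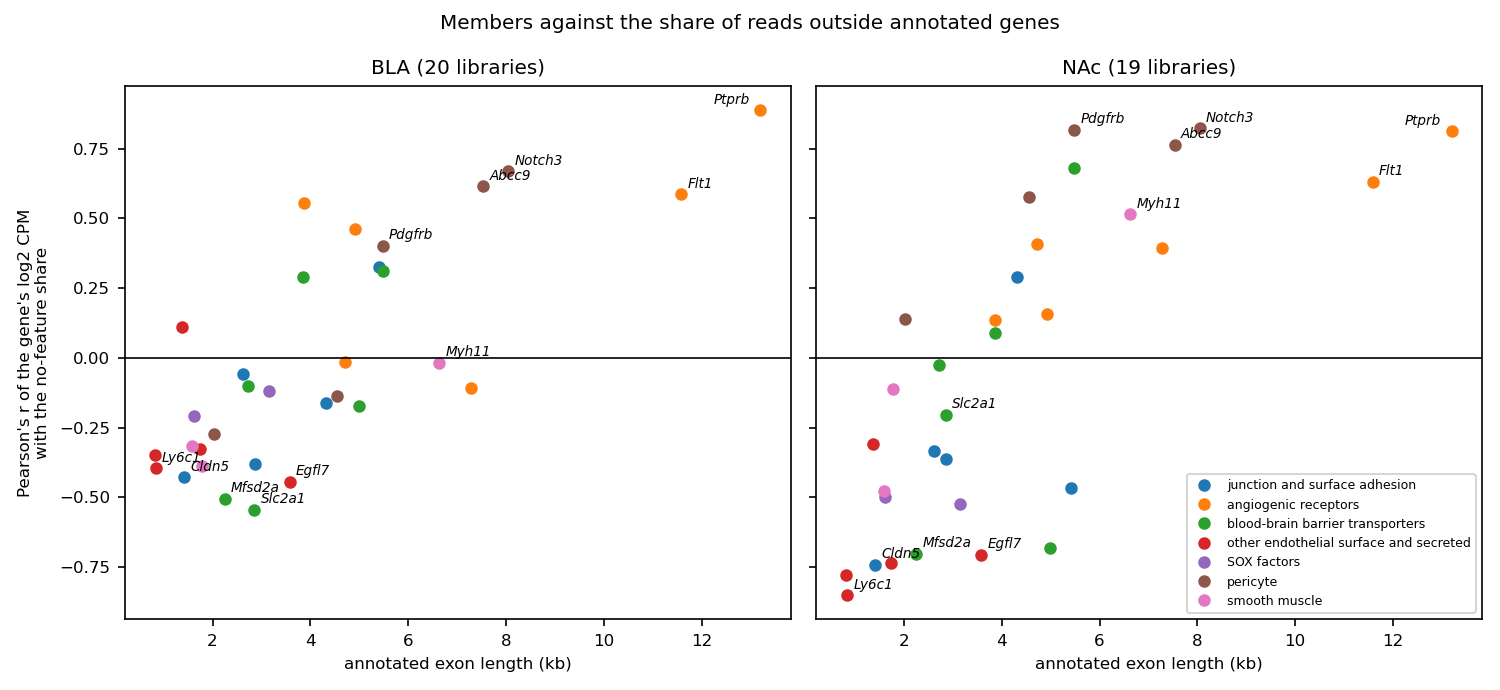
Pearson's r between each gene's log2 CPM and the library's no-feature share, with genotype means taken out, against annotated exon length in kilobases, for 20 BLA and 19 NAc libraries. Points are genes coloured by role. The longest gene, Ptprb, lies far above 0 in both regions (r = 0.89 and 0.81), and the short gene Ly6c1 lies lowest in the NAc (-0.85).

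Over the 32 genes, exon length and this r had a Spearman rho of 0.72 in the BLA and 0.79 in the NAc, a description over genes that share the same libraries. Exon length and the fold change between regions had a rho of 0.16 in wild-type and 0.22 in Lmo4gt/+ mice. The fold change between regions and r to the share had a rho of 0.41 (r in the BLA) and 0.31 (r in the NAc) in wild-type mice, and of 0.47 and 0.38 in Lmo4gt/+ mice, again as descriptions. The part of the share in the region differences was not tested beyond the fits above.

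Other vascular genes were read in 11 lists by function, against 31.1% of all genes called higher and 28.5% lower in wild-type mice, and 26.2% and 26.4% in Lmo4gt/+ mice. With lists this short, counts near those shares say nothing particular about a list. Of 7 further junction genes tested in wild-type mice 3 were higher in the NAc, among them Jam2 (0.40 ± 0.09), and 1 lower, cingulin (Cgn, -0.77 ± 0.13), with 1 higher and 2 lower of 8 in Lmo4gt/+ mice. Of 9 VEGF and angiopoietin ligands and coreceptors 1 was higher and 3 lower, among them Angpt1, the ligand of Tek (-1.84 ± 0.22), with 0 higher and 4 lower of 8 in Lmo4gt/+ mice. Of 9 genes of PDGF and Notch signalling to mural cells 4 were higher, such as Notch1 (0.51 ± 0.07), and 3 lower, with 3 higher and 3 lower of 9 in Lmo4gt/+ mice. Among the lower genes was Pdgfb, the ligand of Pdgfrb, at 36.6 mean CPM in wild-type BLA and 16.5 in wild-type NAc (-1.12 ± 0.07). Pdgfrb was thus higher and Pdgfb lower in the same NAc punches, and which cells gave the RNA of either was not tested. Of 9 genes of Wnt barrier signalling 4 were higher, such as Wnt7a (1.21 ± 0.12), and 2 lower, such as Wnt7b (-1.73 ± 0.08), with 3 higher and 2 lower of 9 in Lmo4gt/+ mice. Of 12 further transporters 4 were higher, such as Slc38a3 (0.46 ± 0.05), and 4 lower, such as Slc3a2 (-0.61 ± 0.05), with 3 higher and 4 lower of 12 in Lmo4gt/+ mice.

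Of 15 endothelial transcription factors 5 were higher in wild-type mice, led by Lmo2 (1.48 ± 0.10), and 1 lower, Tal1 (-1.08 ± 0.22), with 3 higher and 1 lower of 15 in Lmo4gt/+ mice. Arterial genes had 2 of 6 higher, with Efnb2 at 0.93 ± 0.09, and 2 higher and 0 lower of 7 in Lmo4gt/+ mice. Venous and activation genes had 3 of 5 higher, with Vwf (von Willebrand factor) at 0.98 ± 0.13, and 1 lower, Nr2f2 (-5.02 ± 0.10), which neurons of the amygdala also express, with 1 higher and 1 lower of 5 in Lmo4gt/+ mice. Further pericyte genes had 1 of 9 higher, Mcam (1.29 ± 0.09), and 1 lower, with 2 higher and 0 lower of 9 in Lmo4gt/+ mice. Further smooth muscle genes had 0 of 7 higher and 2 lower, Sncg (-1.74 ± 0.43) and Mylk (-1.58 ± 0.10), with 0 higher and 2 lower of 7 in Lmo4gt/+ mice. Basement membrane genes had 4 of 9 higher, such as Nid2 (0.85 ± 0.14), and 2 lower, such as Col4a1 (-0.81 ± 0.07), with 4 higher and 2 lower of 9 in Lmo4gt/+ mice. Each of these genes with a value had an adjusted edgeR p of at most 0.00241 in wild-type mice.

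Other genes taken by the same rule passed in wild-type but not in Lmo4gt/+ mice. The difference between genotypes passed for none of them in the interaction test, which called 0% of 18325 genes. They were the junction gene Cdh5 (VE-cadherin), with 0.30 ± 0.08, adjusted p = 0.00385, and 0.17 ± 0.08, adjusted p = 0.0881 in Lmo4gt/+ mice by edgeR. The ligand gene Vegfa had 0.18 ± 0.05, adjusted p = 0.00813, and 0.03 ± 0.09, adjusted p = 0.783 in Lmo4gt/+ mice in the edgeR fits. The Notch ligand gene Jag1 had 0.47 ± 0.12, adjusted p = 0.00244, and 0.34 ± 0.14, adjusted p = 0.0529 in Lmo4gt/+ mice by edgeR. Among arterial and venous genes, Gkn3 had 0.88 ± 0.34, adjusted p = 0.0344, and -0.06 ± 0.28, adjusted p = 0.883 in Lmo4gt/+ mice, and Ephb4 had 0.38 ± 0.11, adjusted p = 0.00771, and 0.16 ± 0.17, adjusted p = 0.458 in Lmo4gt/+ mice, both by edgeR. The pericyte gene Cspg4, which oligodendrocyte precursors also express, had -0.18 ± 0.05, adjusted p = 0.00991, and -0.17 ± 0.14, adjusted p = 0.327 in Lmo4gt/+ mice by edgeR.

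Markers of other cells were read by list as well. In wild-type mice 31.1% of all genes were called higher in the NAc and 28.5% lower, and 26.2% and 26.4% in Lmo4gt/+ mice. Counts near those shares say nothing particular about a cell type. All 7 myelinating oligodendrocyte genes were higher in wild-type NAc, where they summed to 3608 to 8010.0 CPM against 1725 to 2448 CPM in the BLA. All 7 medium spiny neuron genes were higher (2088 to 4081 CPM against 159 to 809.9 CPM). Of 5 glutamatergic neuron genes 4 were lower (3.40 to 1195 CPM against 1752 to 2293 CPM). Of 8 astrocyte genes 1 was higher and 3 were lower in wild-type mice, with 0 higher and 4 lower of 8 in Lmo4gt/+ mice. Of 4 oligodendrocyte precursor genes 2 were higher and 2 lower, with 2 higher and 1 lower of 4 in Lmo4gt/+ mice. Among cells beside vessels, 4 of 8 fibroblast genes were higher and 2 lower, with 2 higher and 2 lower of 8 in Lmo4gt/+ mice. The fibroblast list summed to 108 to 133 CPM in wild-type NAc and 117 to 155 CPM in wild-type BLA. Much of these sums was Pdgfra, at a mean of 78.3 and 90.85 CPM. Pdgfra is also on the oligodendrocyte precursor list, so the sums do not describe fibroblasts alone. Of 8 microglia genes 2 were higher, with 0 higher and 0 lower of 8 in Lmo4gt/+ mice. The 3 choroid plexus and ependyma genes that were tested in wild-type mice were all higher, with 2 higher and 1 lower of 4 in Lmo4gt/+ mice, and the list summed to 28.4 to 47.4 CPM in wild-type NAc and 6.17 to 179 CPM in wild-type BLA, and reached 645 CPM in Lmo4gt/+ BLA library 127. Of 5 red blood cell genes 1 was higher, the globin gene Hbb-b1 (0.60 ± 0.20, adjusted p = 0.0219, and -0.29 ± 0.19, adjusted p = 0.231 in Lmo4gt/+ mice by edgeR). Red blood cell genes summed to 13.98 to 26.7 CPM and 9.14 to 33.4 CPM, and perivascular macrophage genes, of which 0 of 2 tested passed in either genotype, to at most 3.44 CPM in any library. No gene of these cell type lists was at 0 throughout a group. The part of these cells in the vessel gene differences was not tested.

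By genotype, no vessel gene passed. In the BLA 0 of 32 passed, against 0.00585% of 17087 genes (1 gene, Lmo4), and 2 of 32 (6.25%) had an unadjusted edgeR p under 0.05, against 4.11% of all genes. In the NAc 0 of 32 passed, against 0.00588% of 16999 genes (Lmo4 again), and 1 of 32 (3.125%) had an unadjusted p under 0.05, against 2.67%. DESeq2 also called 0 in each region, with 2 and 1 at an unadjusted p under 0.05. The median log2 fold change (Lmo4gt/+ minus wild type) was 0.04 in the BLA and -0.05 in the NAc, with 20 and 14 of 32 genes above 0. Without NAc library 122 the NAc count stayed at 0.

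**Figure D4:**
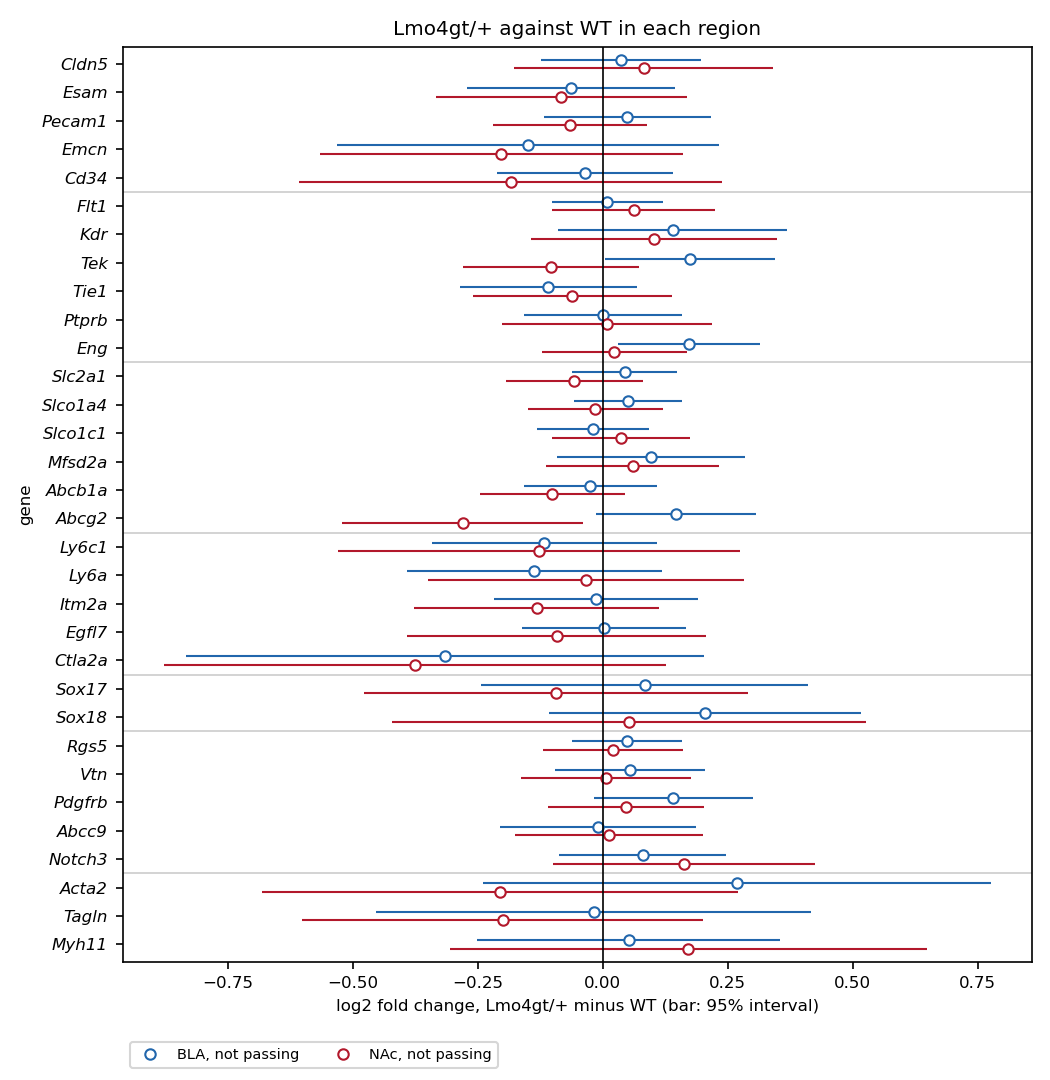
Log2 fold change of Lmo4gt/+ minus wild type with 95% intervals for the 32 genes in the BLA (11 and 9 mice) and the NAc (10 and 9 mice). No gene had an adjusted p below 0.05, and the intervals are wide for Ctla2a and Acta2.

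In the BLA the 95% interval left out a 1.5-fold change in either direction for 30 of 32 vessel genes, against 77.1% of all genes, and the exceptions were Ctla2a and Acta2. In the NAc it did so for 27 of 32, against 73.3%, the exceptions being Cd34, Ctla2a, Acta2, Tagln and Myh11. Taken gene by gene, the intervals thus leave out a change of 1.5-fold for most vessel genes. They are not adjusted for the number of genes. Whether a change of that size would have passed after adjustment over all genes was not tested.

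The smallest p in the BLA was that of Eng, whose counts may hold reads of Fpgs or Ak1 and which ranged over 17.5 to 25.5 CPM (median 23.5) in wild-type and 21.7 to 29.7 CPM (median 25.4) in Lmo4gt/+ mice (0.17 ± 0.07, p = 0.0189, adjusted p = 0.998 by edgeR). Tek ranged over 9.78 to 13.4 CPM (median 10.6) and 9.73 to 15.3 CPM (median 12.2) (0.17 ± 0.08, p = 0.0444). Abcg2 (0.15 ± 0.08, p = 0.0725) and Pdgfrb (0.14 ± 0.08, p = 0.0798) followed with the same adjusted edgeR p. The ranges of all 4 overlapped between genotypes. In the NAc the smallest p was that of Abcg2, which ranged over 10.5 to 18.4 CPM (median 11.6) in wild-type and 6.38 to 11.4 CPM (median 10.9) in Lmo4gt/+ mice (-0.28 ± 0.12, p = 0.0244, adjusted p = 0.9999 by edgeR). Ctla2a (-0.38 ± 0.24, p = 0.136), Abcb1a (-0.10 ± 0.07, p = 0.161) and Notch3 (0.16 ± 0.13, p = 0.214) followed in the edgeR fit, also with overlapping ranges. The Notch3 estimate rests on library 149: it was 0.01 ± 0.08 without that library and 0.03 ± 0.07 with the no-feature share in the fit. Without library 149 Abcg2 had -0.22 ± 0.10 and Abcb1a -0.15 ± 0.06.

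The interaction asked whether the difference between regions depended on genotype. No vessel gene passed, and 0% of 18325 genes did. At an unadjusted edgeR p under 0.05 there were 2 of 32 (6.25%), against 2.96% of all genes, and DESeq2 called 0 with 2 at that level. These were Abcg2 (-0.43 ± 0.14, 95% interval -0.71 to -0.15, p = 0.00421, adjusted p = 0.9999 by edgeR) and Tek (-0.27 ± 0.11, 95% interval -0.48 to -0.05, p = 0.0177). Both had a more negative NAc minus BLA difference in Lmo4gt/+ mice. Eng (-0.14 ± 0.10, p = 0.190) and Slc2a1 (-0.10 ± 0.08, p = 0.229) came next in the edgeR fit. Leaving out mouse 122 or mouse 149 gave no call.

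Vessel genes differed in how much they varied between mice. Within groups in the BLA, the SD of log2 CPM was 0.12 for Slco1c1, the lowest, and 0.54 for Acta2, the highest, with 0.44 for Tagln and a median of 0.19 over all genes tested. In the NAc it was 0.13 for Pecam1, the lowest, and 0.52 for Acta2, the highest. Myh11 and Ly6c1 had 0.51 and 0.50 there, beside a median of 0.25.

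Genes of 1 vessel cell class varied together only in part. The 3 pairs of smooth muscle genes had a median Pearson's r of 0.69 across BLA libraries, with genotype means taken out, and 0.53 across NAc libraries. The 276 endothelial pairs had medians of 0.08 and 0.10. The 10 pericyte pairs had 0.17 in the BLA and 0.55 in the NAc, and the NAc value was 0.19 without library 149. Pairs share the same 20 or 19 libraries, so these are descriptions. Among pairs named after their values were seen, Ptprb and Notch3 had r = 0.85 in the NAc (0.60 without library 149). Ly6c1 and Ly6a had 0.86 (0.79), and Ly6c1 and Notch3 -0.80 (-0.36).

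**Figure D5:**
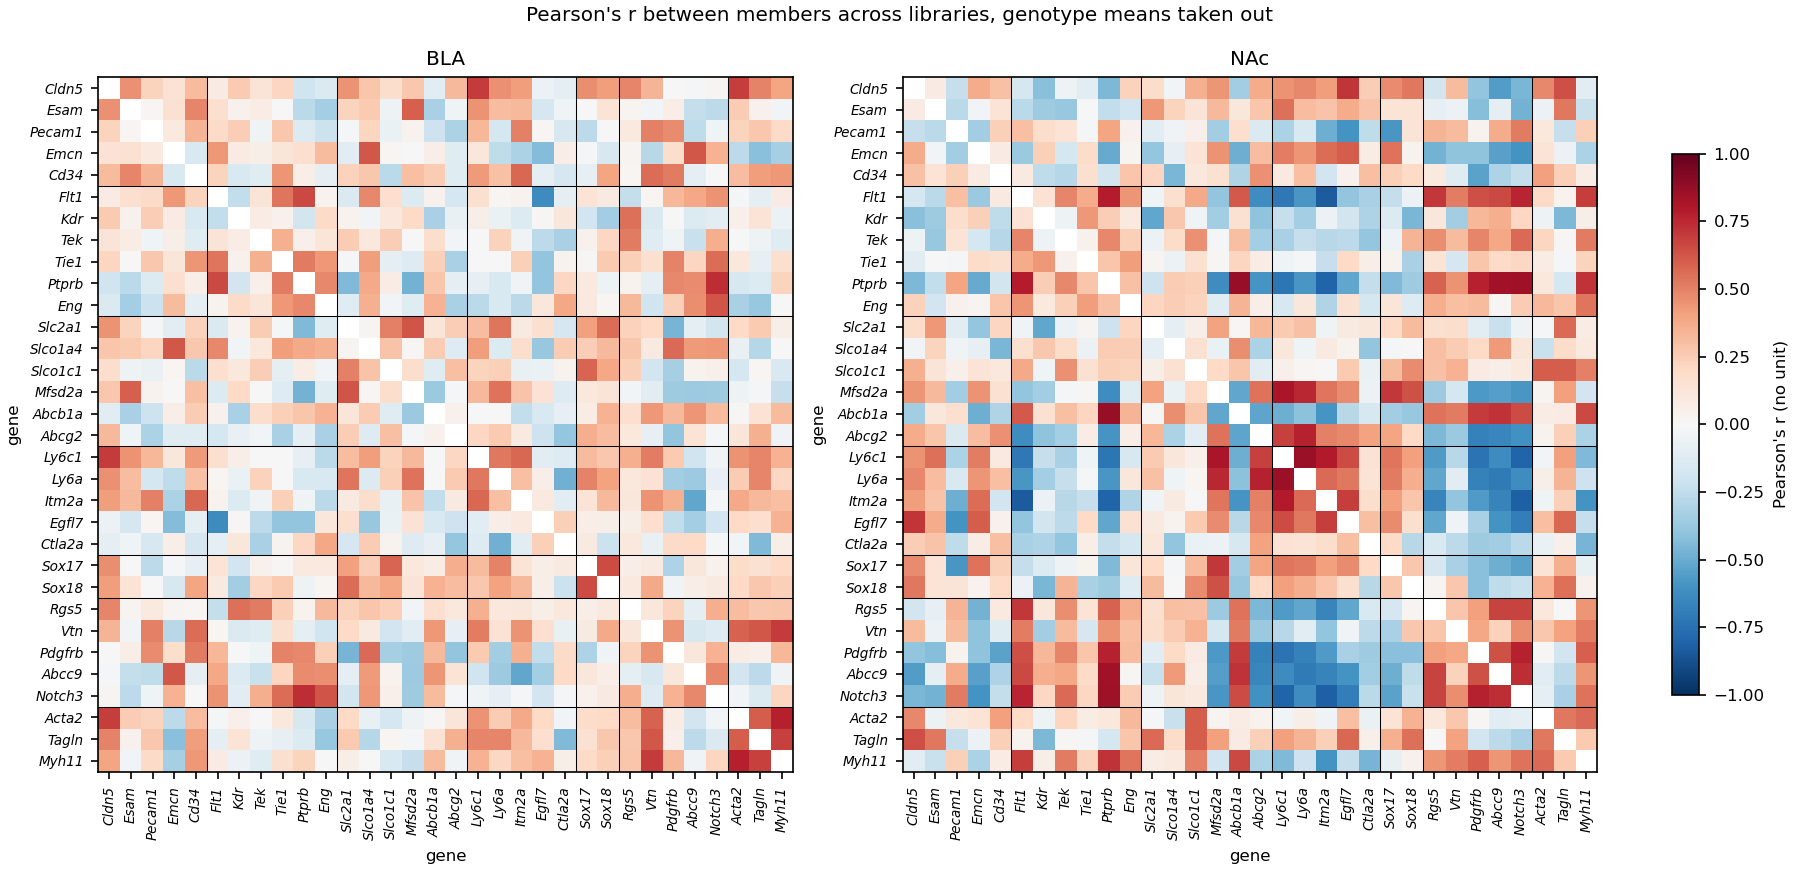
Pearson's r between the 32 genes across 20 BLA and 19 NAc libraries, with genotype means taken out, in order of role and with lines between roles. The smooth muscle block at the lower right is positive in both regions, and the NAc panel holds larger blocks of both signs.

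Correlation was tested with Cldn5 for the endothelium and Acta2 for smooth muscle, 31 relations each in each region. With Cldn5 in the BLA 0 of 31 genes passed and 0% of all genes, with 5 of 31 at an unadjusted permutation p under 0.05. The share of all genes at that unadjusted level was not counted, so the 5 say nothing particular about vessel genes. The highest was Ly6c1 (r = 0.70, p = 0.000800, rho = 0.72, p = 0.000570, adjusted p = 0.255, and r = 0.75 without the 2 libraries farthest from the median of Cldn5). In the NAc 2 of 31 passed, against 8.67% of all genes. They were Egfl7 (r = 0.72, p = 0.000470, rho = 0.65, p = 0.00458, adjusted p = 0.0167, and r = 0.66 without the 2 farthest libraries) and Tagln (r = 0.64, p = 0.00431, rho = 0.65, p = 0.00438, adjusted p = 0.0498, and r = 0.58). With the no-feature share taken out neither passed. With Acta2 0 of 31 passed in the BLA, where 0% of all genes did, and 0 of 31 in the NAc, where 0% did. At an unadjusted permutation p under 0.05 there were 4 and 4, again with no share of all genes to set beside them. The highest r with Acta2 in the BLA was that of Myh11 (r = 0.78, p = 0.000260, rho = 0.70, p = 0.00217, adjusted p = 0.361, and r = 0.72 without the 2 farthest libraries). In the NAc it was that of Slco1c1 (r = 0.61, p = 0.0100, rho = 0.54, p = 0.0224, adjusted p = 0.9995, and r = 0.24 without the 2 farthest libraries, on which it thus rests).

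A mouse's level in 1 region was also set against its level in the other. Across 19 mice 0 of 32 vessel genes passed and 0% of 16352 genes did, with 3 of 32 at an unadjusted permutation p under 0.05. Here too the share of all genes at that unadjusted level was not counted. Abcb1a had the highest value (r = 0.71, p = 8e-05, rho = 0.81, p = 2e-05, adjusted p = 0.119, and r = 0.71 without the 2 farthest mice). It was followed by Pecam1 (r = 0.57, rho = 0.54) and Notch3 (r = 0.52, rho = 0.44), with permutation p for r of 0.0147 and 0.0473, p for rho of 0.0194 and 0.0850 and adjusted p of 0.572 and 0.684. Without the 2 farthest mice their r was 0.59 and 0.50.

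Genes outside the lists were ranked by mean r with the 24 endothelial genes. Only protein-coding genes with an ordinary symbol and a mean level above a set floor entered this ranking. The most alike of them are named for each region. Over 20 BLA libraries they were Cops4 (0.28), Mmrn2 (0.28), S100a1, Cryz, Bola1, Rdbp, Ttyh1 and Emr1 (0.25). Over 19 NAc libraries they were Ctgf (0.26), Vamp8, Utp23, Rbp4, Vwa1, Ccm2, Gde1 and Spats2 (0.25). Among the endothelial genes themselves, Cldn5 had the highest mean r with the others in the BLA (0.23) and Egfl7 the lowest (-0.10). In the NAc the order differed, with Ly6a highest (0.18), Egfl7 next (0.17) and Ptprb lowest (-0.11). These mean r values were not computed without NAc library 149.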

How the data were processed

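PolyA RNA of BLA and NAc micropunches was analysed from the read counts per gene that the authors deposited, 1 file a library. Per the submitters' processing notes, the tools were HISAT2, HTSeq 0.11.1, MultiQC 1.7 and DESeq2, and the build was mm9; annotation and strand setting were not given. Gene names came from GENCODE on NCBIM37. HTSeq's summary lines stayed out of library sizes. The no-feature share was read from a single line of them. All summary lines together, the reads given to no gene, held 24.7% to 38.1% of reads. Genes were filtered with filterByExpr (minimum count 10), scaled by TMM and tested with edgeR 4.0.16 (quasi-likelihood, R 4.3.3), with Benjamini-Hochberg adjustment over all genes tested and a threshold of 0.05. Region fits had mouse as block, since the labels give both libraries of a mouse 1 number; of 19 such pairs 6 had a correlation of deviations over 0.1 (median 0.04). Correlations used log2(CPM + 0.5) and 100000 permutations within genotype, adjusted over all genes tested, not over the list as first planned. Alternatives were RLE size factors, no filter, DESeq2 1.42.0, no block, libraries left out, another pseudocount and, added after the data were seen, the no-feature share as a covariate and the runs without library or mouse 149. The members and lists were chosen with earlier results of these data known. Genes named with fold changes are those that passed in a region comparison, the 4 smallest p-values by genotype and for the interaction, up to 2 a direction from other lists and the 8 most alike genes a region; other members were added after their values were seen. The scripts' fits were tested on simulated data.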

Additional observations from a re-analysis of the deposited data

Results flagged for a closer look

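Among 96 sets of libraries (each of the 32 genes in each group of at most 10), 14 held a value far from the others by Dixon's test, in 13 genes; chance flags about 1 in 20. Of the 14, 7 were in Lmo4gt/+ NAc library 149, which also had the highest no-feature share. Its values were 121.4 CPM for Flt1, 111.5 for Ptprb, 42.1 for Pdgfrb, 85.8 for Notch3 and 33.4 for Myh11, all high, and 2.69 for Ly6c1 and 15.8 for Itm2a, both low. Cd34 was high in NAc libraries 134 (35.8 CPM) and 122 (24.3 CPM), the libraries with the most glutamatergic neuron RNA in their groups, and Abcg2 was high in library 134 (18.4 CPM). The other values were Kdr at 19.2 CPM in NAc library 147, Ctla2a at 1.74 CPM in NAc library 138, Tie1 at 18.2 CPM in NAc library 136 and Slco1c1 at 46.7 CPM in NAc library 129. Any part of the no-feature share or of other tissue in these values was not tested.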

How the results depend on the processing

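By genotype and for the interaction, 0 of 32 genes passed under every alternative run. Between regions, no replicate block gave 13 genes in wild-type and 12 in Lmo4gt/+ mice, against 16 and 11 with the block. The no-feature share as a covariate moved the counts to 0 in wild-type and 5 in Lmo4gt/+ mice. With it the sign reversed in wild-type mice for Flt1 (-0.41), Tie1 (-0.45), Ptprb (-0.62), Slco1a4 (-0.082) and Notch3 (-0.26), and in Lmo4gt/+ mice for Tek (-0.026), Ptprb (-0.18) and Slco1a4 (-0.078); the cause was not tested. Genes correlated with Cldn5 in the NAc went from 2 to 0 with the share taken out, and to 1 with pseudocount 5, with RLE size factors and without libraries 122, 134 and 149. Genes correlated with the share in the NAc went from 11 to 1 without those libraries. Of the values of single genes under alternatives, 279 kept their direction and side of the threshold, 43 lost a call, 6 gained one and 8 reversed. Low counts limit Ctla2a.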
